A study of Mus musculus with 24 samples.

Results

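The genes described here are 48 genes of the cell cycle and of DNA replication, followed in alveolar epithelial cells of mice with and without keratin 8 (gene Krt8) as the cells were placed in culture. The members were named as a list, from textbook roles but with earlier results of these data known. Each of the 48 symbols matched 1 of the 55421 mouse gene identifiers in the deposited count table. By role they are 11 licensing and replication fork genes, 4 genes of nucleotide supply, 8 genes of cyclins and Cdk1, 3 CDC25 phosphatases, 6 transcription factors and 16 genes of mitosis and cytokinesis. In the study, type 2 alveolar epithelial cells (AEC2s), the surfactant-producing progenitors of the gas-exchange surface, were isolated from Krt8+/+ (WT) and Krt8-/- (KO) mice and sequenced freshly isolated (D0) or on day 1, 3 or 7 of 2D culture (D1, D3, D7). This was done in 3 independent isolations, which gave 8 groups of 3 libraries and 24 libraries in all. The KO mice lack Krt8 in every cell of the body, not in AEC2s alone, and all cells, WT and KO, went through the same isolation and culture with no further treatment. Age, strain, sex and the number of mice per isolation were not given in the sources used here.

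Cells that leave the resting state pass through G1, copy their DNA in S phase and divide in M phase, and each step has its own gene set. D-type cyclins open G1. E2F factors with cyclin E then switch on the genes that license origins, build the replication fork and supply nucleotides, while a later wave driven by FOXM1 and MYBL2 supplies cyclin B, CDK1 and the machinery of mitosis. AEC2s of the adult lung are mostly quiescent and can enter the cycle after injury. Which cells cycled in these cultures was not measured. A transcript level in a bulk library is an average, so that fewer cycling cells and less RNA per cycling cell cannot be told apart.

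Libraries held 10184439 to 19483386 counts, and all 48 members passed the filter on low counts among 18046 genes tested. Levels are CPM, the counts of a gene scaled to a common library total by the TMM method of edgeR, and the 3 values of a group are given in the order of isolations 1, 2 and 3. On D0 the 7 AEC2 markers (Sftpc, Sftpb, Sftpa1, Sftpd, Lamp3, Abca3, Slc34a2) summed to 225752 to 298762 CPM in WT and 250362 to 303192 CPM in KO. In culture these markers fell to 353 to 678 CPM on D3 and 166 to 222 CPM on D7 in WT, so that the cells of the later days no longer carried the marker profile of the label. Krt8 stood at 485 to 5092 CPM in WT libraries and at 21.2 to 47.4 CPM in KO libraries. In isolation 1 the genotypes also differed in sex-linked transcripts, since Xist stood at 62.4 to 79.5 CPM in WT and 5.92 to 11.95 CPM in KO, and 4 Y-linked genes summed to 0 to 0.4 CPM in WT and 173 to 191 CPM in KO. The D1 libraries of isolation 2 had the lowest AEC2 marker sums of that day, 15029 CPM in WT and 14145 CPM in KO against 62801 to 87502 CPM in the other isolations.

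Most cell cycle transcripts, though not Ccnd1, were scarce in fresh AEC2s. On D1 those that rose in WT were mainly genes of replication and cyclin E, and between D1 and D3 the members rose almost as a whole in both genotypes. Summed over the 48 genes, WT libraries held 799 to 859.8 CPM on D0, 854 to 986 CPM on D1, 2357 to 3264 CPM on D3 and 2031 to 2929.8 CPM on D7. The KO libraries held 945 to 1024, 869 to 1078, 2098 to 2719 and 1658 to 3003 CPM. In both genotypes every D3 and D7 library lay above every D0 and D1 library of its genotype. In WT, 19 of 48 genes were higher and 7 lower on D1 than on D0 at an adjusted p under 0.05 (edgeR quasi-likelihood test, Benjamini-Hochberg over all genes), where 54.7% of all genes tested passed, 26.2% as higher and 28.5% as lower. On D3, 44 were higher and 3 lower than on D0 (54.0% of all genes passed, 26.1% as higher and 27.8% as lower), and on D7, 45 were higher and 2 lower (58.8% of all genes, 28.6% as higher and 30.2% as lower). The median log2 change of the 48 genes from D0 was 0.10 on D1, 3.28 on D3 and 2.67 on D7, beside medians of all genes between -0.0015 and 0. Between D1 and D3, 41 members rose and none fell (26.3% of all genes passed, 14.4% as higher and 11.9% as lower), with a median of 2.95 beside -0.05 over all genes.

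**Figure D1:**
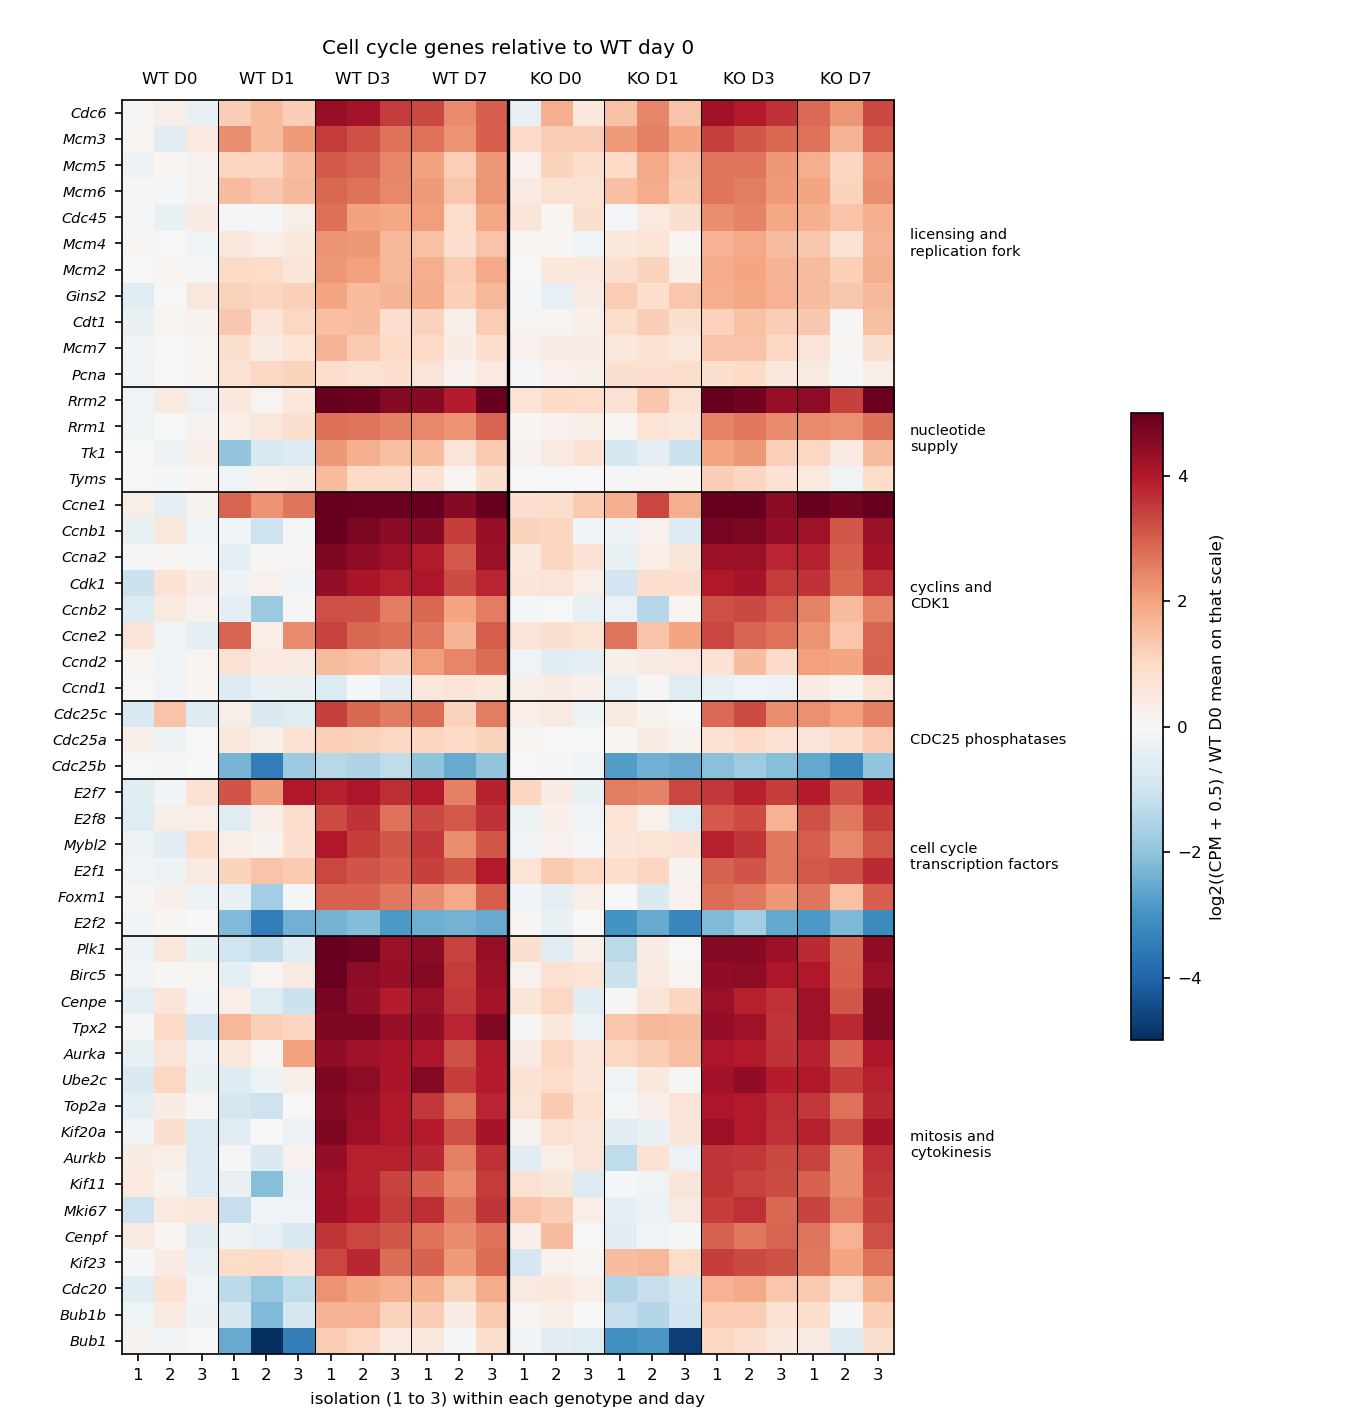
Each row is 1 of the 48 cell cycle genes, grouped by role, and each column 1 of the 24 libraries, with colour giving the log2 level (CPM + 0.5) relative to the WT D0 mean of that gene and saturating at 5. The red block of D3 and D7 spans all roles, most licensing genes are pale red already on D1, and Cdc25b, E2f2 and, on D1, Bub1 are blue.

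Promoters of 8 members are shown from the groups that parted on D1, genes of replication and S phase entry that rose and genes of mitosis that did not. They were picked by hand after that D1 result, and each of the 8 holds an E2F or a CHR match, which not all members do. The members that go the other way are named below. RefSeq promoter windows (GRCm38.p6, 250 bases before to 50 after the start) were found for 37 of the 48 members. Each window was searched on both strands for the E2F site (TTTCCCGC, TTTGGCGC, TTTCGCGC or TTTGCCGC), for the CHR element of late cell cycle genes (TTTGAA) and for the CCAAT box (CCAAT). The 150 bases before the start are printed 5′ to 3′ on the strand of the gene, with matches in capitals.
Mcm6 (chr1:128359706-128359855, minus strand): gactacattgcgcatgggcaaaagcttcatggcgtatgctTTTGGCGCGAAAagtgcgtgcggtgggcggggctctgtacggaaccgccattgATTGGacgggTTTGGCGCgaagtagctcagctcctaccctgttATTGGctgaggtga
Cdc6 (chr11:98908001-98908150, plus strand): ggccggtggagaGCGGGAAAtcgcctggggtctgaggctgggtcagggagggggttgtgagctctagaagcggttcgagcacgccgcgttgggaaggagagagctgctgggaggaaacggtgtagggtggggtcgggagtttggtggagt
Cdc25a (chr9:109875429-109875578, plus strand): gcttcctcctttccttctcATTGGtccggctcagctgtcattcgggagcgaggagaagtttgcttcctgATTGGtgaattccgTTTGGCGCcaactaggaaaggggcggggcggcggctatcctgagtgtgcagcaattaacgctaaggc
Cdk1 (chr10:69352913-69353062, minus strand): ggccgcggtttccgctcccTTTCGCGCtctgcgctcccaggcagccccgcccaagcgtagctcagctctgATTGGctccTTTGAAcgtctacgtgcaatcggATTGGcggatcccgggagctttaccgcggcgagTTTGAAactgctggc
Top2a (chr11:99024190-99024339, minus strand): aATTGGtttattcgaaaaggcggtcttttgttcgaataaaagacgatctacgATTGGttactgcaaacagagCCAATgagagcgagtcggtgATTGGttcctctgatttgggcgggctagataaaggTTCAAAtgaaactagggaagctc
Kif11 (chr19:37376232-37376381, plus strand): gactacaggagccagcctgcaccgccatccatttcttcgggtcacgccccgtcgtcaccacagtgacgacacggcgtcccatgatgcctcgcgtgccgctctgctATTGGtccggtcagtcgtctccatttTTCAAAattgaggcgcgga
Cdc20 (chr4:118437344-118437493, minus strand): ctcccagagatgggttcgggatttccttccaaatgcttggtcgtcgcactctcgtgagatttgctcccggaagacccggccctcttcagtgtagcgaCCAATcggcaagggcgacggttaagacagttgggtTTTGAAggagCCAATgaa
Ube2c (chr2:164769779-164769928, plus strand): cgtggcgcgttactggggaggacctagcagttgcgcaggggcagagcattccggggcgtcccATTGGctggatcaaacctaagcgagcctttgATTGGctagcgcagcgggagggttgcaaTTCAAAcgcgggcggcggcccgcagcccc
In Mcm6, overlapping E2F matches on opposite strands run together as TTTGGCGCGAAA, and the E2F match of Cdc6 lies on the other strand, as GCGGGAAA. Mcm6, Cdc6 and Cdc25a hold an E2F match and no CHR match in the stretch shown, and all 3 genes rose on D1. The D1 calls of Cdc6 and Cdc25a were lost without isolation 3. Cdk1 holds both, and Top2a, Kif11, Cdc20 and Ube2c hold CHR and CCAAT matches without E2F, and none of these 5 genes rose on D1.

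Over whole windows, an E2F match was found for 10 of 37 members (27.0%), a CHR match for 16 (43.2%) and a CCAAT match for 29 (78.4%). Of the 27025 genes with a window, 2.6% held the E2F match, 20.2% the CHR match and 41.1% the CCAAT match. By role, 6 of 9 licensing and fork genes held an E2F match and 2 a CHR match, whereas 10 of 13 mitotic genes held a CHR match, 12 a CCAAT match and 0 an E2F match. Split by the D1 result in WT, 8 of 15 genes that rose held an E2F match and 3 a CHR match, against 2 and 13 of the 22 genes that did not rise. Mcm2, Aurka and Kif23 rose with a CHR match and no E2F match, and Pcna, Rrm1, Ccne1 and E2f1 rose with neither. Bub1, Cenpe, Birc5, Ccnb1, Rrm2, Tyms, Tk1, Mybl2 and Cdc25b held neither and did not rise. Cdk1 held both and did not rise. E2f2 did not rise either, and held its E2F and CHR matches in different windows, since matches were pooled over the windows of a gene. These shares describe letters in a window, and no match was tested as a binding site.

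The licensing and replication fork genes were the earliest to move as a group. MCM proteins form the ring-shaped helicase that unwinds DNA, CDC6 and CDT1 load it at origins, GINS2 and CDC45 join it to make it active, and PCNA is the clamp that holds polymerases on the template. In WT, 9 of the 11 genes rose on D1 with a median log2 change of 1.09, and all 11 were higher than on D0 on D3 (median 2.04) and D7 (median 1.71). Of all genes tested, 26.2% were higher on D1, 26.1% on D3 and 28.6% on D7. The D3 changes of the MCM genes were 2.01 ± 0.22 for Mcm2, 3.21 ± 0.34 for Mcm3, 2.04 ± 0.23 for Mcm4, 2.88 ± 0.33 for Mcm5, 2.72 ± 0.27 for Mcm6 and 1.37 ± 0.20 for Mcm7, and those of Gins2, Cdt1 and Cdc45 were 1.75 ± 0.25, 1.38 ± 0.33 and 2.45 ± 0.36. Only Cdc45 and Mcm4 missed the threshold on D1, with log2 changes of 0.05 ± 0.36 (SE, n = 3 per group) and 0.46 ± 0.22. The largest D1 rises were those of Mcm3 (2.07 ± 0.34), Cdc6 (1.61 ± 0.52), Mcm6 (1.54 ± 0.26) and Mcm5 (1.28 ± 0.32). Mcm6 stood at 14.6, 14.5 and 17.4 CPM on D0, 46.1, 39.7 and 49 CPM on D1, 117, 105 and 84 CPM on D3 and 69.7, 41.2 and 74 CPM on D7, so that D0, D1 and D3 did not overlap (D1 against D0, adjusted p = 5.37e-05 by edgeR).

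In WT Pcna was at its highest levels on D1 and D3, and its 3 libraries of D7 lay below those of D1, whereas Cdc6 had most of its rise after D1. Pcna stood at 48.3, 56 and 60.3 CPM on D0, 93.5, 113 and 119 CPM on D1, 101, 92.1 and 97.8 CPM on D3 and 86.8, 62.8 and 76 CPM on D7 in WT. KO libraries held Pcna at 52.5, 63.2 and 65.7 CPM on D0, 94.5, 97.2 and 102 CPM on D1, 96.7, 108 and 78.4 CPM on D3 and 74.9, 52.5 and 69.3 CPM on D7. Its change in WT was 0.98 ± 0.15 on D1 (adjusted p = 2.17e-05 by edgeR) and 0.83 ± 0.15 on D3, the smallest D3 rise of the class, and D1 and D3 overlapped. Cdc6 had the largest D3 rise of the class, 4.43 ± 0.53 (adjusted p = 7e-07 by edgeR). Its WT levels were 1.46, 1.84 and 0.996 CPM on D0, 3.97, 5.27 and 4.01 CPM on D1, 38.8, 33.6 and 21.1 CPM on D3 and 18.2, 9.29 and 14.6 CPM on D7. In KO they were 0.936, 6.28 and 2.24 CPM on D0, 4.75, 9.92 and 4.59 CPM on D1, 34.1, 29 and 22.5 CPM on D3 and 13.2, 8.25 and 18.3 CPM on D7, where the D0 library of isolation 2 lay above 2 of the 3 D1 libraries. Some of these counts are uncertain. Pcna, Mcm7 and Cdc6 have processed pseudogenes that are 95.2 to 99.2% identical over at least 781 bases, which took 2.0 to 5.84% of the joint counts, and Mcm7 and Gins2 overlap exons of Ap4m1 and Gse1 on the other strand, while it was not stated whether counting used strand.

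Of the 4 genes of nucleotide supply, the ribonucleotide reductase genes Rrm1 and Rrm2 rose most and the thymidine kinase gene Tk1 fell before it rose. On D1 only Rrm1 was higher (0.59 ± 0.18) and only Tk1 lower (-1.17 ± 0.39), and on D3 and D7 all 4 were higher than on D0, although without isolation 1 only 2 of the 4 passed on D7. Of all genes tested in WT, 26.2% were higher and 28.5% lower on D1, and 26.1% were higher on D3 and 28.6% on D7. Rrm2, the regulated subunit, stood at 3.31, 5.63 and 3.1 CPM on D0, 5.8, 4.26 and 5.84 CPM on D1, 184, 132 and 104 CPM on D3 and 102, 65.2 and 137 CPM on D7 in WT. The KO levels were 6.62, 8.2 and 7.8 CPM on D0, 7, 10.6 and 7.01 CPM on D1, 146, 125 and 89.8 CPM on D3 and 95.4, 45.7 and 135 CPM on D7. Its D3 change in WT was 5.14 ± 0.40, a 35.2-fold rise (adjusted p = 2.46e-09 by edgeR), and per kilobase of exon only Ccnd1 (51.1 CPM per kilobase) lay above its D3 level of 50.6 CPM per kilobase among the 48 genes. Tyms, thymidylate synthase, had the smallest D3 rise of the class, 1.22 ± 0.24 (adjusted p = 0.000237 by edgeR). It stood at 19.9, 18.4 and 21.4 CPM on D0, 17, 22.9 and 23.6 CPM on D1, 60.1, 39.9 and 38.7 CPM on D3 and 33.1, 22.1 and 34.9 CPM on D7 in WT. KO libraries held Tyms at 20.3, 20 and 20.3 CPM on D0, 18.7, 22.1 and 21.1 CPM on D1, 47.6, 41.9 and 33.1 CPM on D3 and 28, 17.3 and 38 CPM on D7, so that D0 and D1 overlapped and D3 lay above both in each genotype. The Tyms transcript also holds a repeat that other transcripts share at 95% identity or more over 201 to 361 bases.

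Among the cyclins, cyclin E genes rose first, cyclins A and B with Cdk1 followed on D3, and the D-type cyclins kept a course of their own. Cyclin E drives entry into S phase. Ccne1 had the largest D3 rise of all 48 genes, 6.14 ± 0.53 on the log2 scale (adjusted p = 8.83e-09 by edgeR), from D0 libraries that held only 8, 1 and 4 of its counts. Its WT levels were 0.509, 0.108 and 0.443 CPM on D0, 5.8, 3.43 and 4.75 CPM on D1, 31.3, 25.1 and 24.9 CPM on D3 and 29.1, 19 and 36.5 CPM on D7. Its KO levels were 1.01, 1.01 and 1.55 CPM on D0, 2.33, 7.98 and 2.41 CPM on D1, 28.4, 31.7 and 18.6 CPM on D3 and 26.1, 22.2 and 35.7 CPM on D7. In WT no D1 library overlapped D0 or D3, and D3 and D7 overlapped.

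Ccne2 rose on D1 in WT by 2.22 ± 0.53 (adjusted p = 0.00156 by edgeR), and its isolations were far apart. The WT levels were 6.68, 3.57 and 2.88 CPM on D0, 34.1, 5.27 and 23.4 CPM on D1, 47.5, 33.6 and 31.1 CPM on D3 and 28.2, 14.5 and 36.9 CPM on D7. The KO levels were 6.69, 7.59 and 6.95 CPM on D0, 29.1, 12 and 17.7 CPM on D1, 46.6, 34 and 30.2 CPM on D3 and 21.5, 11.7 and 34.3 CPM on D7. In both genotypes the lowest D1 value came from isolation 2, whose D1 libraries also had the lowest AEC2 marker sums, and in WT it lay within the D0 range. Ccne2 shares 474 exon bases with Ints8 on the other strand.

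Cyclin A2, cyclin B1 and CDK1, the kinase that starts mitosis, did not pass the test on D1 and rose 17.8- to 31.8-fold on D3 in WT. Ccna2 stood at 2.92, 3.47 and 2.88 CPM on D0, 2.06, 3.26 and 3.19 CPM on D1, 90.5, 77.9 and 67 CPM on D3 and 55.7, 29.4 and 70.3 CPM on D7 in WT. KO libraries held Ccna2 at 4.68, 7.09 and 5.41 CPM on D0, 2.24, 4.02 and 4.98 CPM on D1, 69.2, 71 and 49.8 CPM on D3 and 50.4, 28.3 and 64 CPM on D7. D0 and D1 overlapped in both genotypes, and in WT D3 lay 4.67 ± 0.37 above D0 on the log2 scale (adjusted p = 2.71e-09 by edgeR). Ccnb1 stood at 2.03, 4.33 and 2.32 CPM on D0, 2.35, 1.09 and 2.51 CPM on D1, 113, 84.5 and 74.1 CPM on D3 and 75.1, 35.7 and 66.1 CPM on D7 in WT. KO libraries held Ccnb1 at 6.55, 6.38 and 2.32 CPM on D0, 2.15, 3.31 and 1.56 CPM on D1, 88, 85.1 and 68.2 CPM on D3 and 60.3, 27.5 and 64.8 CPM on D7. Again D0 and D1 overlapped and every D3 library exceeded every earlier one of its genotype, with a WT change of 4.99 ± 0.45 (adjusted p = 1.92e-08 by edgeR). Cdk1 stood at 1.53, 6.5 and 4.98 CPM on D0, 3.08, 4.43 and 3.39 CPM on D1, 89.8, 71.3 and 62.6 CPM on D3 and 69.4, 39.9 and 59.3 CPM on D7 in WT. KO libraries held Cdk1 at 6.04, 6.18 and 4.94 CPM on D0, 1.7, 7.07 and 7.24 CPM on D1, 67.2, 73.5 and 48 CPM on D3 and 51.5, 31.1 and 52.7 CPM on D7. D3 lay clear of both earlier days in each genotype, with a WT change of 4.15 ± 0.45 (adjusted p = 2e-07 by edgeR), and the same direction was seen for Ccnb2 (3.15 ± 0.48 on D3). Ccnb1 has 3 processed pseudogenes at 97.3 to 99.2% identity, each with 2.74 to 3.14% of the joint counts, and Ccna2 shares 431 exon bases with Exosc9 on the other strand.

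Ccnd1 was the most abundant of the 48 genes per kilobase of exon in every WT group, at 67.9 CPM per kilobase on D0 and 101 CPM per kilobase on D7, and it was among the few members below their D0 level on D3. Cyclin D1 links growth signals to G1. Its WT levels were 324, 293 and 343 CPM on D0, 205, 246 and 255 CPM on D1, 198, 298 and 227 CPM on D3 and 468, 506 and 459.7 CPM on D7. KO libraries held Ccnd1 at 391, 419 and 381 CPM on D0, 243, 333 and 211 CPM on D1, 247, 276 and 259 CPM on D3 and 423, 360.0 and 513 CPM on D7. In WT it changed by -0.44 ± 0.17 on D1 and -0.41 ± 0.17 on D3 (adjusted p = 0.0288 and 0.0422 by edgeR), and it then rose between D3 and D7 by 0.99 ± 0.17 (adjusted p = 0.000903). D3 overlapped D0 through isolation 2, and D7 lay above all other WT days. Both early falls are small: that of D1 missed the threshold in 6 of 8 other settings and that of D3 in 4 of 8. Ccnd2, its relative, climbed at each step, with 60.1, 47.9 and 58.6 CPM on D0, 95.1, 78.7 and 75.4 CPM on D1, 167, 154 and 129.6 CPM on D3 and 236, 302 and 384 CPM on D7 in WT. KO libraries held Ccnd2 at 48.9, 37.3 and 38.9 CPM on D0, 66.1, 74.4 and 78.5 CPM on D1, 91.9, 164 and 109 CPM on D3 and 229, 217 and 427 CPM on D7. No neighbouring days overlapped in WT, and the changes were 0.58 ± 0.24 from D0 to D1 (adjusted p = 0.0469 by edgeR) and 1.43 ± 0.24 from D0 to D3 (adjusted p = 4.68e-05). Ccnd1 shares 818 exon bases with LTO1 on the other strand.

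**Figure D2:**
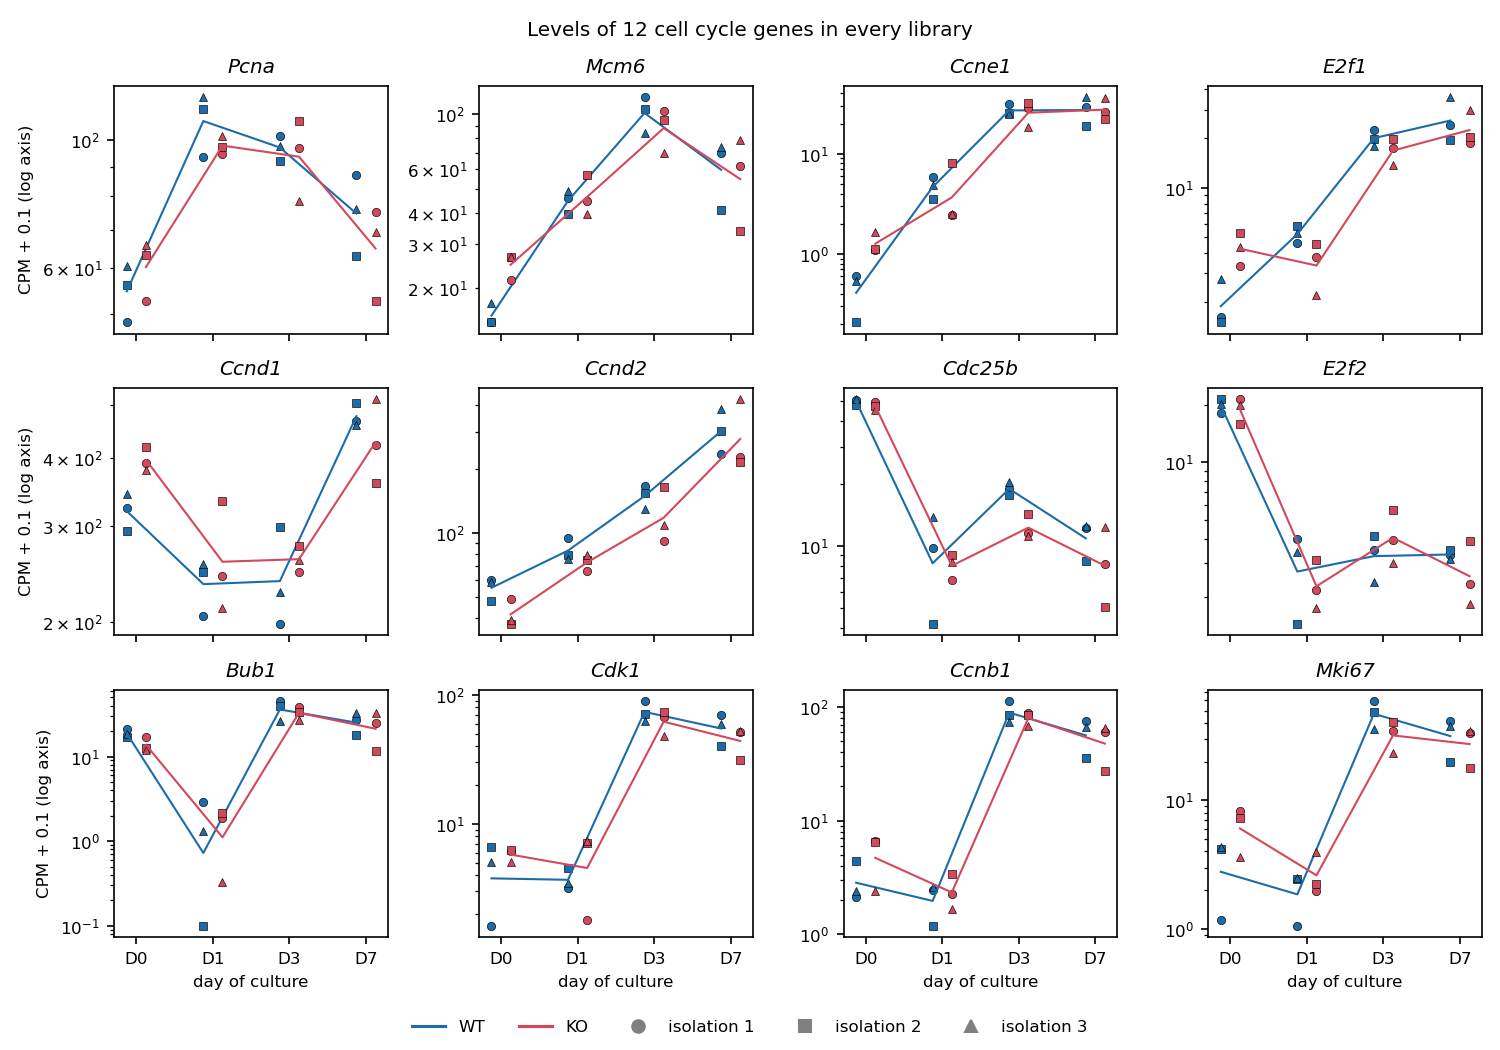
Each panel gives the level of 1 gene (CPM + 0.1, log axis) against day of culture for WT (blue) and KO (red), with a symbol per isolation and lines through the geometric means. Pcna, Mcm6, Ccne1 and, in WT, E2f1 are above D0 on D1, in WT Cdk1, Ccnb1 and Mki67 rise above their D0 range only from D3, Bub1 dips on D1, and Cdc25b and E2f2 stay below D0 throughout.

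The 3 CDC25 phosphatases, which remove inhibitory phosphates from CDKs, moved in different directions. Cdc25a, which acts at S phase entry, stood at 17.4, 12 and 14.3 CPM on D0, 21.6, 18 and 24.9 CPM on D1, 33.2, 32.9 and 29.7 CPM on D3 and 31.2, 28.6 and 32.1 CPM on D7 in WT. KO libraries held Cdc25a at 15.8, 14.3 and 14.8 CPM on D0, 15.2, 18.7 and 16.3 CPM on D1, 24.8, 28.4 and 24 CPM on D3 and 22.5, 27.3 and 35.8 CPM on D7. In WT it rose by 0.55 ± 0.17 on D1 and 1.13 ± 0.17 on D3 (adjusted p = 0.00985 and 1.36e-05 by edgeR), with no overlap with D0. Cdc25b fell. It was highest in fresh cells, at 50.7, 47.5 and 51 CPM, and stood at 9.62, 4.1 and 13.6 CPM on D1, 18.8, 17.4 and 20.1 CPM on D3 and 12.1, 8.38 and 12.3 CPM on D7 in WT. The KO values were 49.4, 47.3 and 45 CPM on D0, 6.73, 8.95 and 8.25 CPM on D1, 11.4, 14.2 and 11.1 CPM on D3 and 8.12, 4.98 and 12.2 CPM on D7. No cultured library of either genotype reached the D0 range, and in WT the change was -2.44 ± 0.31 on D1 and -1.41 ± 0.30 on D3 (adjusted p = 1.97e-06 and 0.000496 by edgeR). Cdc25c, which acts at mitotic entry, had 1, 19 and 1 counts in the D0 libraries of WT, at 0.0636, 2.06 and 0.111 CPM, against 0.661, 0.0836 and 0.136 CPM on D1, 9.64, 6.55 and 5.33 CPM on D3 and 6.19, 1.66 and 5.1 CPM on D7. Its KO values were 0.72, 0.81 and 0.309 CPM on D0, 0.807, 0.584 and 0.467 CPM on D1, 6.31, 8.68 and 4.3 CPM on D3 and 4.17, 3.5 and 5.04 CPM on D7. Its D3 rise in WT was 3.35 ± 0.79 (adjusted p = 0.00118 by edgeR), and 2.44 to 6.45 with 1 isolation left out (6.45 without isolation 2). Its D1 value of -1.21 ± 0.91 rests on so few counts that it turned positive without isolation 2 (2.22).

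The 6 transcription factors did not move as one. E2f7 and E2f1 were higher on D1, E2f8, Mybl2 and Foxm1 only from D3, and E2f2 was lower on every day of culture. E2f1, an activator of replication genes, stood at 1.53, 1.41 and 2.66 CPM on D0, 4.48, 5.77 and 5.16 CPM on D1, 22.6, 19.8 and 17.9 CPM on D3 and 24.2, 19.6 and 35.6 CPM on D7 in WT, a change of 1.48 ± 0.32 on D1 and 3.44 ± 0.32 on D3 (adjusted p = 0.000646 and 2.9e-08 by edgeR). In KO it stood at 3.24, 5.16 and 4.25 CPM on D0, 3.68, 4.41 and 2.1 CPM on D1, 17.4, 19.8 and 13.7 CPM on D3 and 18.6, 20.2 and 29.9 CPM on D7, with D0 and D1 overlapping and a D1 change of -0.30 ± 0.30 (adjusted p = 0.423 by edgeR). E2f7, a repressor that closes the E2F wave, had the largest D3 rise of the class and most of it was present on D1. It stood at 0.127, 0.325 and 0.996 CPM on D0, 7.56, 3.51 and 14.3 CPM on D1, 13.2, 14.6 and 11.2 CPM on D3 and 13.9, 4.81 and 12.9 CPM on D7 in WT. KO libraries held E2f7 at 1.44, 0.709 and 0.232 CPM on D0, 4.84, 4.6 and 8.72 CPM on D1, 10.1, 12.9 and 9.58 CPM on D3 and 13.6, 7.55 and 13.5 CPM on D7. Every cultured library lay above D0, and the WT change was 4.24 ± 0.67 on D1 and 4.86 ± 0.68 on D3 (adjusted p = 2.58e-05 and 4.52e-06 by edgeR).

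E2f2, another activator of the family, went the opposite way to E2f1. It stood at 18, 21.2 and 20 CPM on D0, 3.89, 1.34 and 3.33 CPM on D1, 3.41, 4.02 and 2.27 CPM on D3 and 3.2, 3.4 and 3.05 CPM on D7 in WT. KO libraries held E2f2 at 21.3, 15.7 and 19.9 CPM on D0, 2.06, 2.98 and 1.63 CPM on D1, 3.84, 5.54 and 2.89 CPM on D3 and 2.23, 3.82 and 1.72 CPM on D7. All D0 libraries exceeded all cultured libraries, and the WT change was -2.78 ± 0.36 on D1 and -2.61 ± 0.36 on D3 (adjusted p = 2.54e-06 and 3.85e-06 by edgeR). Foxm1, which drives the genes of G2 and mitosis, did not pass the threshold on D1 (-0.67 ± 0.45) and rose on D3 by 2.97 ± 0.44 (adjusted p = 9.98e-06 by edgeR). Its WT levels were 4.39, 5.09 and 3.32 CPM on D0, 3.16, 0.919 and 3.87 CPM on D1, 35.9, 35.9 and 28.9 CPM on D3 and 24, 17.1 and 37.8 CPM on D7. KO libraries held Foxm1 at 3.74, 2.83 and 5.49 CPM on D0, 4.31, 2.33 and 4.98 CPM on D1, 32.2, 28.7 and 20.7 CPM on D3 and 30, 12.6 and 36.7 CPM on D7. D0 and D1 overlapped in both genotypes and D3 lay above both. Mybl2, which activates late cell cycle genes with FOXM1, followed Foxm1, with 0.50 ± 0.48 on D1 and 3.91 ± 0.48 on D3. E2f8, a partner of E2f7, held 0, 4 and 4 counts in the D0 libraries of WT, where 0 counts allow up to 0.191 CPM, and reached 4.54 to 8.81 CPM on D3.

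The 16 genes of mitosis and cytokinesis made the steepest step, and all 16 rose between D1 and D3, with a median log2 change of 4.73 in WT and 3.60 in KO. Summed over the class, WT libraries held 70, 110.5 and 68.8 CPM on D0, 52, 39.8 and 58.3 CPM on D1, 974, 849 and 650.5 CPM on D3 and 669, 369 and 661 CPM on D7. In WT 15 of 16 were higher on D3 than on D0 (median 4.41), and on D1 3 were higher, 3 lower and 10 did not pass the test (median -0.58). Of all genes tested in WT, 26.1% were higher on D3, and on D1 26.2% were higher and 28.5% lower. From D1 to D3, 14.4% of all genes rose in WT and 13.4% in KO. The D1 rises were those of Tpx2, which builds the spindle (1.29 ± 0.38), of its kinase Aurka (1.29 ± 0.47) and of the cytokinesis motor Kif23 (0.89 ± 0.32). The D1 falls were those of Bub1, Bub1b and Cdc20, which carry the spindle checkpoint signal, at -3.77 ± 0.62, -1.27 ± 0.37 and -1.64 ± 0.32. Bub1 stood at 20.9, 17 and 18.2 CPM on D0 in WT, and per kilobase of exon the 3 genes that fell were the highest of the class on D0, at 9.41 (Cdc20), 4.29 (Bub1) and 2.97 (Bub1b) CPM per kilobase against at most 1.06 (Ube2c) for the rest. It then stood at 2.79, 0 and 1.22 CPM on D1, 45.4, 39 and 26 CPM on D3 and 27.2, 17.7 and 32.5 CPM on D7, and 0 counts in isolation 2 on D1 allow up to 0.251 CPM. In KO it stood at 16.8, 12.7 and 12 CPM on D0, 1.79, 2.07 and 0.234 CPM on D1, 38.7, 33.5 and 27.1 CPM on D3 and 25, 11.7 and 32.5 CPM on D7, and in both genotypes D1 lay below D0 in all 3 isolations. Its D3 level exceeded D0 by 0.97 ± 0.52 in WT (adjusted p = 0.119 by edgeR), which missed the threshold, and by 1.26 ± 0.52 in KO (adjusted p = 0.0491).

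The proliferation marker Mki67, the chromosome untangling enzyme Top2a and the mitotic kinase Plk1 showed the common course of the class. Mki67 stood at 1.08, 4.12 and 4.21 CPM on D0, 0.955, 2.34 and 2.38 CPM on D1, 59.4, 48.9 and 35.9 CPM on D3 and 41.7, 19.8 and 38 CPM on D7 in WT. KO libraries held Mki67 at 8.2, 7.19 and 3.55 CPM on D0, 1.88, 2.14 and 3.89 CPM on D1, 34.8, 40.6 and 23.1 CPM on D3 and 33.2, 17.9 and 34.3 CPM on D7. D0 and D1 overlapped in both genotypes, and D3 was 3.99 ± 0.48 above D0 in WT on the log2 scale (adjusted p = 7.66e-07 by edgeR). Top2a stood at 3.37, 6.39 and 5.09 CPM on D0, 2.5, 2.09 and 4.75 CPM on D1, 125, 108 and 84.1 CPM on D3 and 61.1, 34 and 74.1 CPM on D7 in WT. KO libraries held Top2a at 7.99, 12.6 and 8.5 CPM on D0, 4.48, 5.77 and 7.78 CPM on D1, 87.1, 82.1 and 67.2 CPM on D3 and 61.1, 34 and 71.7 CPM on D7. In WT D0 and D1 overlapped, in KO D1 lay below D0, and D3 exceeded both in each genotype, by 4.44 ± 0.37 over D0 in WT (adjusted p = 7.14e-09 by edgeR). Plk1 had the largest D3 rise of the class, 5.18 ± 0.55 in WT (adjusted p = 1.26e-07 by edgeR). Its WT levels were 0.954, 2.06 and 0.886 CPM on D0, 0.367, 0.251 and 0.679 CPM on D1, 55.6, 49.9 and 33.6 CPM on D3 and 39.2, 17.4 and 34.6 CPM on D7. KO libraries held Plk1 at 2.52, 0.709 and 1.55 CPM on D0, 0.179, 1.75 and 1.25 CPM on D1, 39.8, 40.3 and 33 CPM on D3 and 22.6, 12.8 and 36.6 CPM on D7. In WT D1 lay below D0 without passing the test (-1.50 ± 0.69, adjusted p = 0.0719 by edgeR).

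The rest of the class moved in the same direction on D3. Survivin (Birc5) and its partner kinase Aurkb, which correct chromosome attachment, stood 4.95 ± 0.44 and 4.41 ± 0.59 above D0 in WT, and the kinetochore genes Cenpe and Cenpf 4.80 ± 0.56 and 3.56 ± 0.43. The motors of spindle and midzone, Kif11, Kif20a and Kif23, changed by 4.06 ± 0.59, 4.41 ± 0.41 and 3.43 ± 0.33, and Tpx2 and Aurka by 4.61 ± 0.39 and 4.53 ± 0.48. Ube2c and Cdc20, which direct the destruction of mitotic cyclins, changed by 4.49 ± 0.43 and 1.95 ± 0.30, and Bub1b by 1.55 ± 0.35. All of these passed the test, that of Bub1b not without isolation 1. Kif20a shares 979 exon bases with Cdc23 on the other strand.

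**Figure D3:**
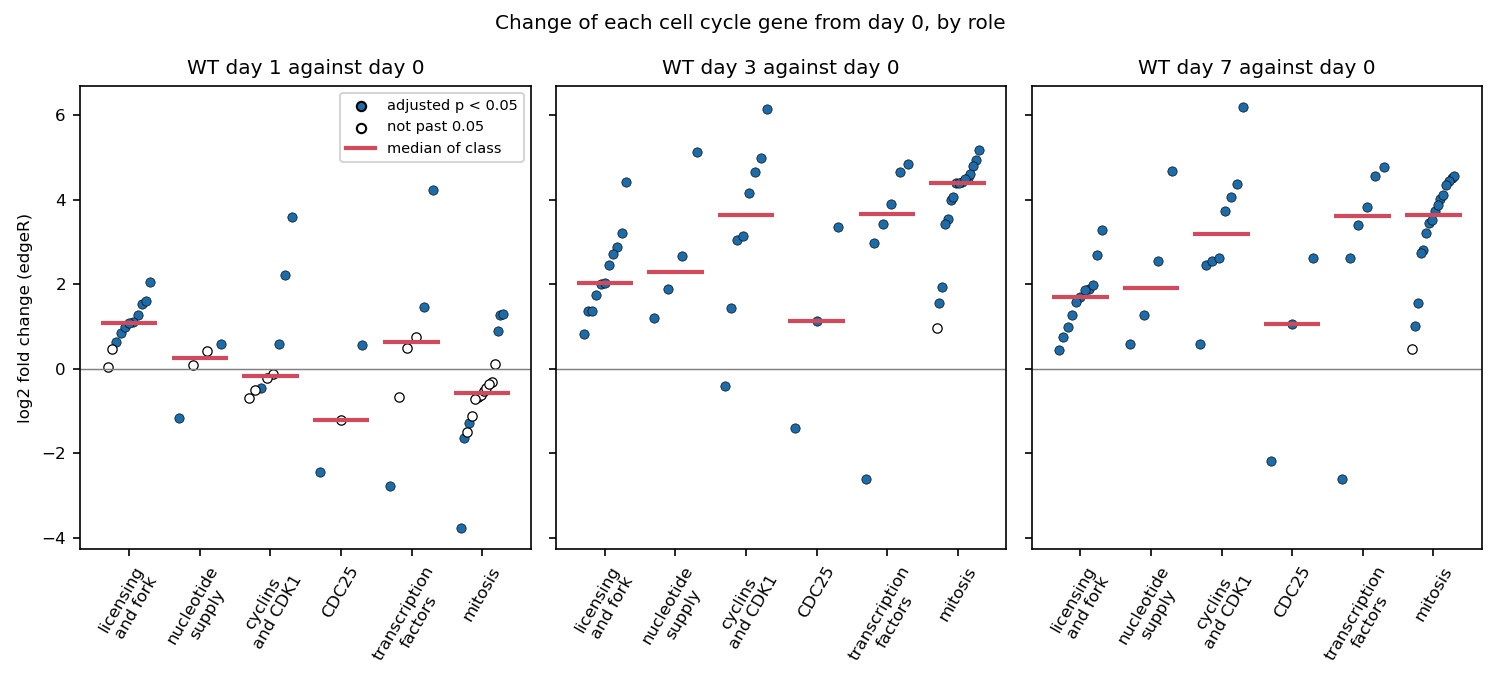
Each point is the log2 fold change of 1 gene in WT from D0 to D1, D3 or D7, by role, filled where the adjusted p is under 0.05, with a red bar at the median of the class. On D1 the licensing genes have a median of 1.09 and the mitotic genes of -0.58, and on D3 the medians are 2.04 and 4.41.

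Which members passed on D1 depended on the isolations more than on D3. In WT the count of 26 called genes was 18 without isolation 1, 26 without isolation 2 and 22 without isolation 3. For counts with 1 isolation left out, here and elsewhere, the shares of all genes are not given. Fewer libraries lower the power for every gene, so lost calls cannot be read as particular to the members. Calls lost were those of Ccnd2, Mcm2, Cdt1, Tk1, Tpx2, Aurka, Mcm7, Kif23 and Ccnd1 without isolation 1, of Ccnd2 and Bub1b without isolation 2, and of Cdc6, Aurka, Kif23, Cdc25a and Ccnd1 without isolation 3. On D3 the count of 47 was 44, 47 and 46, with the calls of Cdt1, Bub1b and Ccnd1 lost without isolation 1 and that of Ccnd1 without isolation 3. Without isolation 2, whose D1 libraries stood apart in AEC2 markers, the median D1 change of the 48 genes was 0.51. By role, leaving out isolation 1 took the D1 count from 9 to 6 for licensing genes, from 2 to 1 for nucleotide supply, from 4 to 2 for cyclins and Cdk1 and from 6 to 3 for mitotic genes.

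Between D3 and D7 most members did not pass the test, and the share that passed lay near that of all genes. In the fit of all libraries Ccnd1 and Ccnd2 were the 2 that passed as higher. In WT 2 genes were higher (Ccnd1 and Ccnd2) and 1 lower (Mcm4, -0.76 ± 0.22, adjusted p = 0.0392 by edgeR) on D7, where 6.58% of all genes passed, 3.11% as higher and 3.47% as lower. In KO 2 were higher (Ccnd1, 0.73 ± 0.17, and Ccnd2, 1.26 ± 0.24) and 2 lower (Pcna, -0.52 ± 0.15, and Mcm7, -0.77 ± 0.19), where 10.5% of all genes passed, 4.40% as higher and 6.15% as lower. The WT count of 3 was 1 without isolation 1, 1 without isolation 2 and 2 without isolation 3, and the KO count of 4 was 1, 2 and 1. The call of Ccnd1 was lost without isolation 1 in WT and without isolation 1 or 3 in KO, and that of Ccnd2 without isolation 2 or 3 in WT and without isolation 3 in KO. The median log2 change of the 48 genes was -0.50 in WT and -0.41 in KO, but the isolations differed. Within isolations 1, 2 and 3 the median ratio was -0.49, -1.05 and 0.05 in WT and -0.41, -1.18 and 0.28 in KO. On D7 isolation 2 was the lowest for 45 of 48 genes in each genotype, and on D3 isolation 3 was the lowest for 44 of 48 in each.

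Genes of the same pathway outside the member list, taken from lists of other cell cycle genes, were counted in WT on D3 against D0. These lists too were written with earlier results of these data known. Of 90 such genes 70 were higher and 2 lower, with a median log2 change of 1.70. Of all genes tested, 26.1% were higher and 27.8% lower. Among 13 origin and helicase genes 11 were higher and 0 lower, led by Orc1 (6.06 ± 0.69), a subunit of the origin recognition complex, and by Cdc7 (4.50 ± 0.68), the kinase that fires origins, both already higher on D1 (4.26 ± 0.70 and 3.31 ± 0.68). Among 23 polymerase and fork genes 17 were higher and 0 lower, led by Pole (3.83 ± 0.52), the leading-strand polymerase, and Uhrf1 (3.39 ± 0.38), which couples replication to DNA methylation. Among 38 other mitotic genes 34 were higher and 0 lower, led by Sgo1 (5.39 ± 0.72), the guardian of centromere cohesion, and the kinetochore gene Ndc80 (5.26 ± 0.68). The 16 genes of G1 control were the mixed list, with 8 higher and 2 lower and a median of 0.40. Skp2 (2.41 ± 0.48), which marks p27 for destruction, and E2f3 (2.38 ± 0.32) rose most, and Rbl2 (-1.80 ± 0.28), a pocket protein of resting cells, and Ccnd3 (-0.54 ± 0.13) fell.

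CDK inhibitors were measured beside the members, and Cdkn1a (p21) was the one that peaked on D1. Cdkn1a stood at 52.3, 60.8 and 41.4 CPM on D0, 1410.1, 1006 and 1880.4 CPM on D1, 457, 485 and 428 CPM on D3 and 697, 679 and 750.4 CPM on D7 in WT. KO libraries held Cdkn1a at 54.8, 59.3 and 36.3 CPM on D0, 1508, 999 and 1886 CPM on D1, 437, 619.5 and 478 CPM on D3 and 656, 685 and 598 CPM on D7. No D1 library overlapped any other day, and the WT change was 4.80 ± 0.27 on D1 and 3.15 ± 0.25 on D3 (adjusted p = 4.32e-11 and 3.35e-09 by edgeR). The mitotic genes were at their lowest sum on the day p21 transcripts were highest, and on D3 both were well above D0. In WT only Bub1, Bub1b and Cdc20 of these genes passed as lower on D1, while Tpx2, Aurka and Kif23 passed as higher. Whether p21 and the mitotic genes were linked was not tested. Cdkn2b (p15) was higher than on D0 on each day in WT, by 2.29 ± 0.22 on D1 and 2.87 ± 0.23 on D3. Cdkn1b (p27) fell, with -0.86 ± 0.30 on D1 and -1.29 ± 0.30 on D3, and Cdkn1c (p57) was at -0.76 ± 0.40 on D1, which did not pass, and fell to -1.95 ± 0.41 on D3. Cdkn2c (p18) was lower on D1 alone (-1.48 ± 0.40), Cdkn2d (p19) did not pass on D1 (-0.87 ± 0.44) or D3 (-0.60 ± 0.43), and Cdkn2a, at most 0.795 CPM in any library, was not tested. WT libraries held 0 counts of Cdkn2a on D0 and D1, 1, 2 and 0 on D3 and 8, 6 and 12 on D7. KO libraries held 0 on D0 and 7, 5 and 1 on D7.

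Markers of other cell types moved with the days as well, and their part in the results was not tested. The 9 fibroblast and smooth muscle markers summed to 303 to 1018 CPM on D0, 171 to 293 CPM on D1, 1634 to 2795 CPM on D3 and 2847 to 5253 CPM on D7 in WT. On D3 against D0, 5 of the 9 were higher and 1 lower, with Acta2, Tagln, Col1a1, Col1a2 and Pdgfrb the ones that rose to 47.5 to 525 CPM on average, while Dcn fell to 58.7 CPM and Lum stood at 3.82 CPM. Of all genes tested, 26.1% were higher and 27.8% lower on D3. The 8 macrophage markers summed to 16.5 to 146 CPM on D0, 51.5 to 433 CPM on D1 and 32.9 to 231 CPM on D3, were highest in isolation 1 on each day, and 1 of the 8 passed on D1 and 0 on D3. Of all genes tested, 54.7% passed on D1 and 54.0% on D3. On D3 the 8 lymphocyte markers summed to at most 1.65 CPM and the 6 endothelial markers to at most 17.97 CPM in any library, most of it Kdr, while Emcn was at 0 counts in all 6 D3 libraries and Pecam1 and Cdh5 at 0 in the 3 of WT. The 7 airway cell markers (ciliated, club and basal) summed to 6015 to 12193 CPM on D0, 5459 to 16561 CPM on D1 and 983 to 1890.4 CPM on D3 in WT. Most of the D3 sum was Tubb4b (8734, 9911 and 10690 counts) and Scgb1a1 (5696, 18837 and 17094 counts). Krt5 held 12, 22 and 0 counts on D3 in WT and Trp63 0, 5 and 0. From D1 to D3 the sums of the 48 genes and of the fibroblast markers rose in all 3 isolations of each genotype. On D3 both ranked the isolations alike within each genotype. In WT the 48 genes summed to 3264, 2930 and 2357 CPM on D3, and the fibroblast markers to 2795, 2043 and 1634 CPM. Between D3 and D7 the sums of the fibroblast markers rose in all 3 isolations of each genotype. Those of the 48 genes fell in 2 of 3 and rose in isolation 3. In that isolation the class of cyclins and Cdk1, which holds Ccnd1 and Ccnd2, went from 638 to 1135 CPM in WT and from 614 to 1213 CPM in KO. The mitotic class went from 650 to 661 CPM in WT and from 532 to 665 CPM in KO. Whether these courses were linked was not tested.

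**Figure D4:**
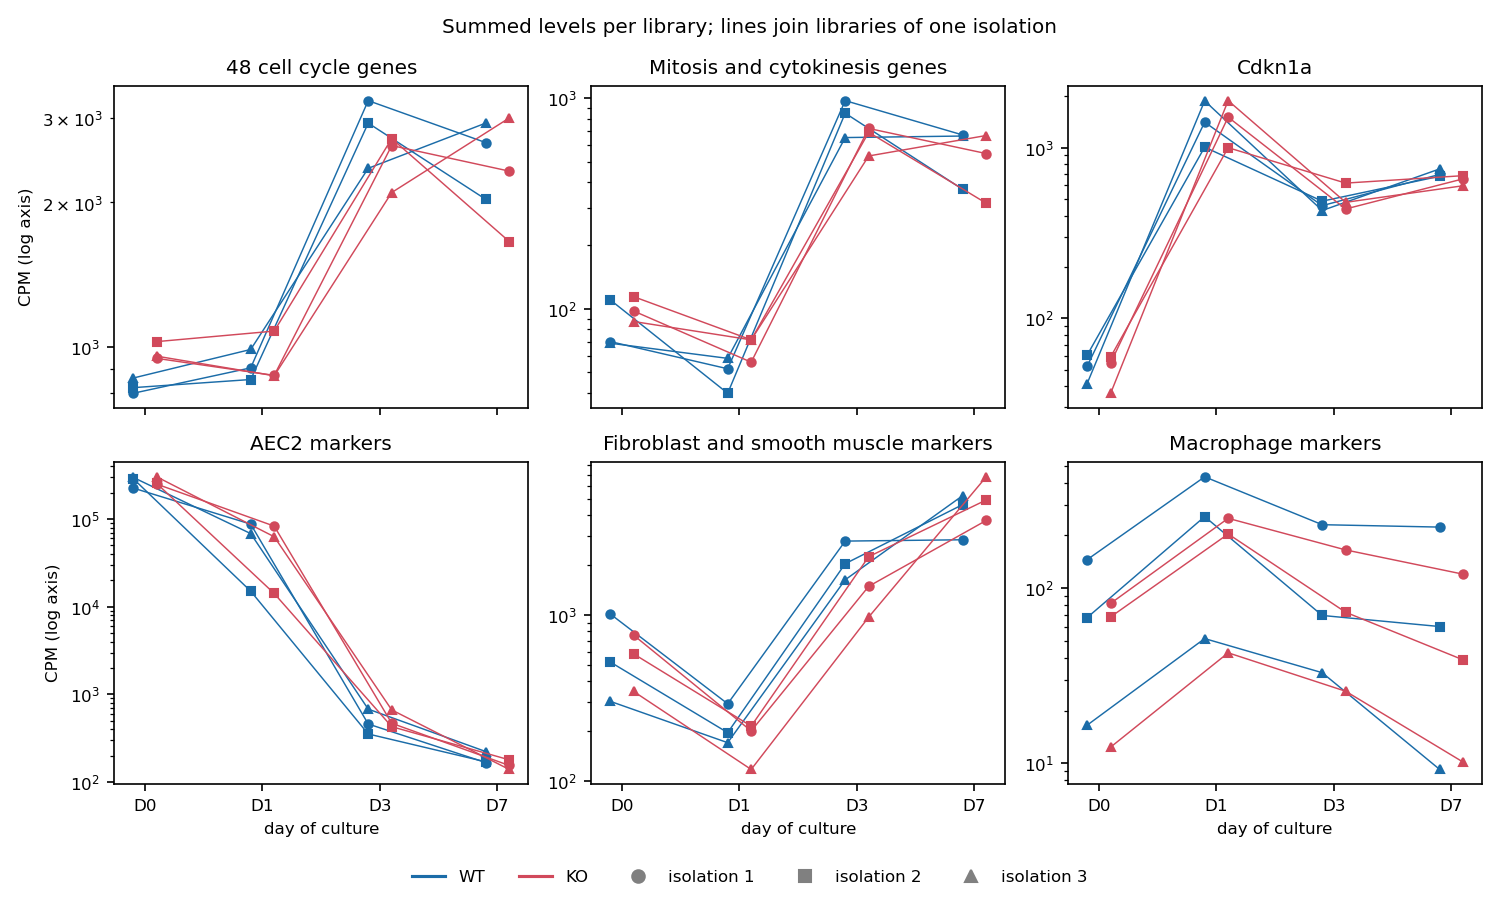
Panels give the summed CPM (log axis) of the 48 genes, of the 16 mitotic genes, of 3 marker lists and the level of Cdkn1a in every library by day, with lines joining the libraries of 1 isolation in WT (blue) and KO (red). On D1 Cdkn1a is highest, and the mitotic sum and the fibroblast and smooth muscle sum are both lowest. AEC2 markers fall from D0 on, and fibroblast and smooth muscle markers rise from D1 to D7.

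The KO libraries were compared over days in the same way. On D1, 11 of 48 genes were higher and 10 lower than on D0 (50.6% of all genes passed, 23.7% as higher and 26.9% as lower), on D3 45 were higher and 3 lower (52.0% of all genes, 25.4% as higher and 26.6% as lower), and on D7 39 were higher and 2 lower (58.5% of all genes, 28.6% as higher and 29.9% as lower). Between D1 and D3, 40 rose and none fell (23.6% of all genes, 13.4% as higher and 10.2% as lower). On D1 the share of members that were higher lay near that of all genes. The count of 21 calls on D1 was 12 without isolation 1, 20 without isolation 2 and 17 without isolation 3. Of the 11 licensing genes 5 were higher on D1 (median 0.71), and of the 16 mitotic genes 2 were higher, 5 lower and 9 did not pass (median -0.62). Without isolation 1 only 2 licensing and 4 mitotic genes passed. The genes lower on D3 were, as in WT, Ccnd1 (-0.61 ± 0.17), Cdc25b (-1.95 ± 0.31) and E2f2 (-2.21 ± 0.35). The median log2 change from D0 was 0.02 on D1, 2.38 on D3 and 2.37 on D7.

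Between genotypes none of the 48 genes passed the test on any day. On D0, D1, D3 and D7, 0 members were called, where edgeR called 0.0277%, 0.0166%, 0.0166% and 0.0166% of all genes, and at an unadjusted p under 0.05 there were 9, 3, 0 and 0 members, where 2.65%, 3.54%, 2.50% and 1.41% of all genes were. By the DESeq2 test 0 members passed on each day as well, and 10, 5, 1 and 0 had an unadjusted p below that value. Shares of all genes are given for edgeR only. With days 1 to 7 averaged by the trapezoid rule, 0 members were called (0.0277% of all genes) and 2 had an unadjusted p under 0.05 (2.88% of all genes), with 0 called and 2 by DESeq2. Of the members, 36 had a positive KO minus WT difference on D0, where 48.03% of all genes did, and 44 a negative one on D3, where 49.1% of all genes did. The median differences were 0.36 on D0, 0.16 on D1, -0.23 on D3 and -0.13 on D7, and none of these medians was tested. Within isolations 1, 2 and 3 the median ratio was 0.35, 0.30 and 0.40 on D0, -0.10, 0.55 and -0.15 on D1, -0.36, -0.11 and -0.25 on D3 and -0.24, -0.23 and -0.02 on D7. The genotypes of isolation 1 also differed in sex-linked transcripts. Without that isolation the median was 0.23 on D0, -0.14 on D3 (37 of 48 negative, share of all genes not given) and -0.07 on D7. The D1 median was -0.07 without isolation 2.

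For single genes the data leave room for differences of moderate size. On D3 the 95% interval of the KO minus WT log2 difference was -1.42 to 0.32 for Mki67, -1.05 to 0.56 for Cdk1, -0.94 to 0.60 for Ccnb1 and -0.36 to 0.28 for Pcna. The lowest p values between genotypes, given here after their values were seen, were those of E2f1 and Mcm3 on D0. E2f1 was 3.24, 5.16 and 4.25 CPM in KO and 1.53, 1.41 and 2.66 CPM in WT, a difference of 1.19 ± 0.32 (unadjusted p = 0.00152, adjusted p = 0.864 by edgeR). Mcm3 was 12, 14.4 and 14.4 CPM in KO and 6.42, 3.79 and 8.41 CPM in WT, a difference of 1.13 ± 0.33 (unadjusted p = 0.00295, adjusted p = 1 by edgeR). For both genes all 3 KO libraries lay above all 3 WT libraries on D0.

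Whether the course in culture differed between genotypes was tested with the genotype by day terms. The joint test called 0 of 48 members (0.00554% of all genes), with 2 members at an unadjusted p under 0.05 (1.49% of all genes). DESeq2 called 0 with 4 (share of all genes not given). Taken alone, the term for D3 against D0 called 0 members and was negative (the change in KO below that in WT) for 40 of 48 genes, where 48.3% of all genes had a negative term. Its median over the members was -0.65, and 10 members had an unadjusted p under 0.05, as 2.24% of all genes did. The lowest p among these terms were those of E2f1 (-1.43 ± 0.43, adjusted p = 1.00 by edgeR) and Top2a (-1.41 ± 0.47). The term for D1 had its lowest p for E2f1 too (-1.78 ± 0.44, unadjusted p = 0.000647, adjusted p = 1.00 by edgeR), with a median of -0.17 over the members, and the term for D7 had a median of -0.53. The D3 terms and the KO minus WT differences on D0 share the D0 libraries, so they are not independent.

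**Figure D5:**
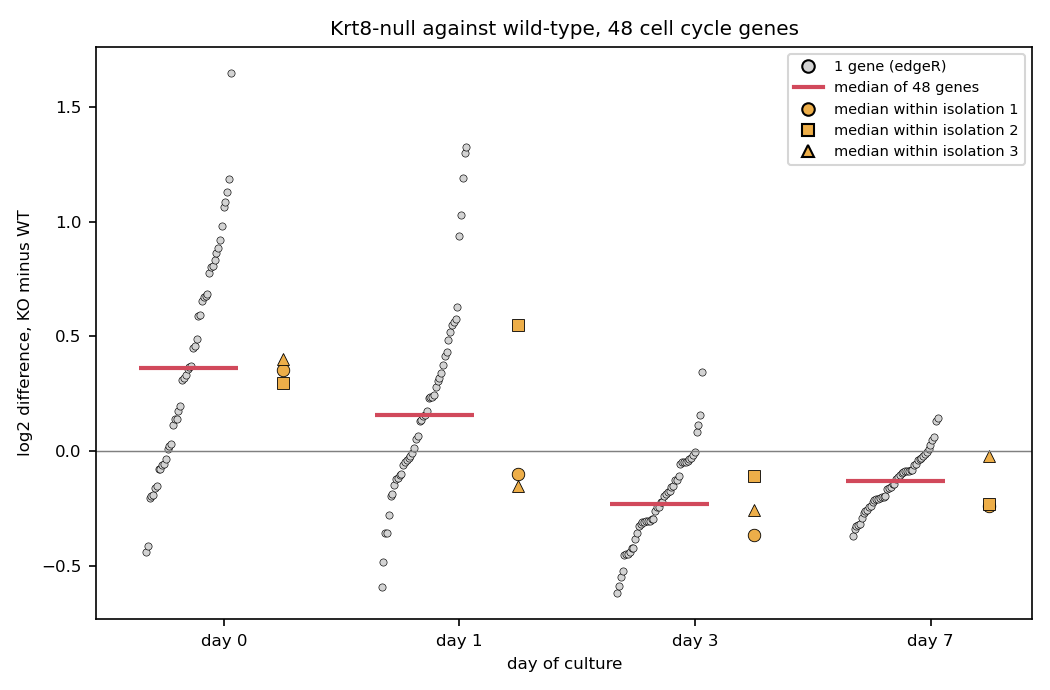
Grey points are the fitted log2 differences of the 48 genes, KO minus WT, on each day, red bars their medians, and orange symbols the median ratio within each isolation. The points of D0 lie mostly above 0 and those of D3 mostly below, and no gene passed the test on any day.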

How the data were processed

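RNA of AEC2s from Krt8+/+ and Krt8-/- mice was sequenced at D0, D1, D3 and D7 in 3 isolations, each with its own date in the labels and taken as a biological replicate. The authors deposited a single table of counts per gene, as whole numbers. The submitters' processing notes name cutadapt 2.3, STAR 2.7.8a, RSEM 1.3.3 and GRCm38 without stating their order, and do not state whether the whole numbers are rounded RSEM estimates or whether counting used strand. The table has no further sample columns (0 unused), and 5 reporter entries, all at 0 counts, were left out.

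Genes with low counts were removed with filterByExpr (minimum count 10, minimum total 15), which left 18046. All 24 libraries entered 1 model with a mean per group, fitted with edgeR 4.0.16 (limma 3.58.1, R 4.3.3) by the quasi-likelihood test with TMM factors and Benjamini-Hochberg adjustment over all genes tested, at a threshold of 0.05. KO was compared with WT on each day, and over days 1 to 7 with trapezoid weights of 0.167, 0.5 and 0.333. The genotype by day terms were tested jointly and, as an alternative added after the data were seen, each alone. Ratios within an isolation used a pseudocount of 0.5 CPM. Values of 0 counts allow up to 3 counts, and this floor covers counting error only.

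Values per library are given for 13 genes chosen by name and for the largest and smallest WT change on D3 of each role, and in other lists the 2 largest rises and falls are named. Mcm6 (shown for its promoter), Mcm3 and other genes singled out on D1 were chosen after their values were seen. The members and all lists were chosen with earlier results of these data known. Libraries of a group differed by more than sampling noise (chi-square per gene 9.44 to 109). Same-numbered libraries share an isolation date, and their deviations from the group means correlated at -0.03 to 0.55, so a replicate block was fitted as an alternative. Other alternatives were DESeq2 1.42.0 size factors and test, no filter, leaving out each isolation, and fitting only the libraries compared. Promoters are RefSeq windows from 250 bases before to 50 after the start, near-identical copies were sought by BLAST of transcripts (at least 95% identity over 200 bases), and the test script was tested on simulated data.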

Additional observations from a re-analysis of the deposited data

How the results depend on the processing

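The counts of members called from D0 to D1, D3 and D7 and from D1 to D3 in WT, those from D0 to D3 and D7 and from D1 to D3 in KO, and the 0 calls between genotypes stayed within 1.5 times under every alternative tried. Leaving out 1 isolation at a time gave 12 to 20 calls for KO D1 against D0 (21 with all), 1 to 2 for WT D7 against D3 (3 with all) and 1 to 2 for KO D7 against D3 (4 with all). WT D7 against D3 gave 5 calls with the DESeq2 test and 5 without the filter. With the replicate block the calls were 26, 47, 47, 42 and 4 in WT and 20, 48, 41, 41 and 4 in KO for D1, D3 and D7 against D0, D3 against D1 and D7 against D3, and 0 between genotypes, and the block added or removed at most 1 call in any comparison. Of the single-gene values, 985 stayed on their side of the threshold, 55 lost and 9 gained a call, and 5 turned their sign, none of them called. For D1 against D0 in WT, leaving out 1 isolation gave -0.56 to 0.15 for Cdk1, -0.86 to 0.25 for Ccnb1 and -3.18 to 2.22 for Cdc25c, each positive without isolation 2, and -0.26 to 0.022 for Ccna2, positive without isolation 1. For KO against WT on D3 it gave -0.21 to 0.080 for Pcna, positive without isolation 3. The causes were not tested. Of the medians, 4 moved by more than the spread between isolations, those of D1 against D0 in WT (0.51 without isolation 2) and in KO (0.18 without isolation 1, 0.17 without isolation 2) and that of KO against WT on D0 (0.23 without isolation 1). Genes with 0 to 19 counts per library in WT on D0, such as Ccne1, Cdc25c, E2f7, E2f8 and Plk1, have wide errors, and small differences between genotypes could not be detected with 3 isolations.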
